A study of Rattus norvegicus with 8 samples.

Results

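The extracellular matrix proteins and integrins described here are Lama5, Col5a1, Fn1, Sparc, Spp1, Itga1, Itgb1 and Lgals1, 8 of the 4736 genes that the array annotation assigned to a probe set carrying a single symbol. They were taken as the probe sets whose only symbol is one of these names, which gave 15 probe sets: 5 for Fn1, 4 for Sparc and 1 for each of the other genes. The genes were chosen by their function with the difference in signal between induced and uninduced cells already known. Their values in that comparison are therefore given as a description with standard errors and without p-values. Lgals1 encodes a secreted lectin that binds matrix glycoproteins and integrins, and is neither a structural matrix protein nor an integrin.

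The samples were cultures of Htt14A2.5, a line of PC12 cells, which derive from a rat adrenal medullary tumour. In every sample the line carried, by its labels, an inducible truncated mutant form of exon 1 of the human huntingtin gene. Per their titles, 4 samples received ponasterone (+PA), the steroid that switches the transgene on, and 4 did not (-PA). The labels give 48 h of treatment in the description of every sample, also of the -PA samples, so the titles alone set the groups. No samples of a line lacking the transgene were among those analysed here, so an effect of ponasterone and an effect of the huntingtin fragment cannot be told apart. The labels do not say whether the 4 samples of a group were separate cultures, and the spread between them may be technical.

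Extracellular matrix is the network of laminins, collagens, fibronectin and associated glycoproteins around cells. Laminins are trimers that build the basement membrane, and collagens form fibres or sheets. Integrins are receptors of an alpha and a beta chain that span the cell membrane, bind matrix ligands outside and link to the actin cytoskeleton inside. PC12 cells are widely used to study how neurites grow out on laminin and collagen, which they do through integrins that share the beta 1 chain.

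The 300 bases around the annotated start, 250 before and 50 after it, are shown for Lama5 and Col5a1. These were the members that passed the test used over the whole array. They come from RefSeq (build GRCr8) and are printed 5′ to 3′ on the strand of the gene. The Lama5 window is chr3:187695925-187696224 (minus strand) and the Col5a1 window is chr3:31606630-31606929 (plus strand). Capitals mark the GC box GGGCGG or its reverse complement CCGCCC, a binding sequence of Sp1-type factors.
Lama5: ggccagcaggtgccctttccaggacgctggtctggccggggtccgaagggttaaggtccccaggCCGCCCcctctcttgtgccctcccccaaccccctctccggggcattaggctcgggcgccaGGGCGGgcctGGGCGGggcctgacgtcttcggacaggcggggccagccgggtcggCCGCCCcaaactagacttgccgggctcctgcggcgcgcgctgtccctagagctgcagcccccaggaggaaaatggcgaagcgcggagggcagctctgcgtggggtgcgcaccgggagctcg
Col5a1: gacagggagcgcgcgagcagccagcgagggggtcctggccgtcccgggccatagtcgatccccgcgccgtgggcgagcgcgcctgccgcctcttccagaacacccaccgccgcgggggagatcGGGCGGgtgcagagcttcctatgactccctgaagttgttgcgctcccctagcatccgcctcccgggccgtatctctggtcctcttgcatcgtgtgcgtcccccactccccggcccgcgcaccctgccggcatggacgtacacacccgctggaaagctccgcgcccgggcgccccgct

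The windows of 6 members were found (Lama5, Col5a1, Sparc, Spp1, Itga1 and Itgb1). The GC box occurred 4 times in the Lama5 window, 1 time in the Col5a1 window and 4 times in the Itgb1 window. It was present on either strand in 33.1% of all 33469 windows of the same length. The Lama5 matches began 186, 126, 116 and 71 bases before the start, and the Col5a1 match began 127 bases before it. The window was 73% G or C for Lama5, 72% for Col5a1 and 71.7% for Itgb1, against a median of 51.7% over all windows. The TATA sequence TATAAA was found only in the Spp1 window, 204 bases before the start, and in 14.2% of all windows. The AP-1 sequence TGANTCA (7.33% of all windows), the cAMP response element TGACGTCA (1.83%) and the nuclear receptor half-site AGGTCA (16.2%), each searched on both strands, were in none of the 6 windows. Such matches describe letters in a window and say nothing of binding in these cells. The first letters after the annotated start were ATG in the Lama5 window and GGCATG in the Col5a1 window. ATG is the codon that starts translation, so the annotated starts may differ from the starts of transcription. The windows may then hold leader sequence rather than promoter, and the distances are from the annotated start only.

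RNA of each sample was hybridised to 1 Affymetrix rat array, and the deposited value is a scaled linear signal, 1 for each probe set and array. Median signals of the 8 arrays ran from 97.5 to 134.9. No detection calls were among the values used here, so the 95th percentile of 38 negative control probe sets served as a mark of low signal. It lay between 101.6 and 136.9 on the induced arrays and between 127.6 and 183.5 on the uninduced arrays. Markers of chromaffin cells were present for Nefm, Chgb, Phox2a and Prph, whereas Dbh, Ddc and Nefl did not exceed that mark on any array and Th, the enzyme that starts catecholamine synthesis, exceeded it on 1. Of 15 such markers tested, 2 rose, 3 fell and 10 were not called. Those that rose were Gap43 (log2 difference 0.61) and Ngfr (0.45), and another Ngfr probe set differed by -0.33 and was not called. Those that fell were Phox2a (-0.70), Gata3 (-0.68) and Syp (-0.47). Over all tested genes 4.31% were called higher and 2.9% lower. The summed signal of the 10 fibroblast markers on the array spanned 4334 to 5544 in induced and 4167 to 5369 in uninduced samples, and with 1 probe set per gene 0 of 7 tested were called, in limma and at an unadjusted p under 0.05. Among the other probe sets of these markers, 2 of Col1a1 were called higher in induced cells. Col1a2, Lum, Pdgfra, Vim and Postn lay at or under the mark on every array. Of other cell types, Schwann and glial markers had 1 of 7 tested called (higher). Leukocyte markers (5 tested), endothelial and smooth muscle markers (6) and adrenal cortex markers (1) had 0 called, also at an unadjusted p under 0.05. Their summed signals spanned 1349 to 1434 induced and 1110 to 1445 uninduced for glia, 509.6 to 1031 and 577.2 to 819.7 for leukocytes, 596.3 to 1338 and 786.3 to 1040 for endothelium and smooth muscle, and 102.9 to 254.2 and 160.3 to 291.9 for adrenal cortex. The part of other cells in the values below was not tested.

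The matrix and integrin genes fell into those with signals far above the negative controls and those near them. All 4 Sparc probe sets and those of Col5a1, Itgb1 and Lgals1, 7 in all, exceeded the control mark on all 8 arrays. Lama5 exceeded it on the 4 induced arrays and on 0 uninduced arrays. Itga1 exceeded it on 2 arrays, and the 5 Fn1 probe sets and the Spp1 probe set exceeded it on none. Differences were fitted with limma to log2(signal + 7) for the 6129 probe sets whose mean signal was at least 36, and a probe set was called when its Benjamini-Hochberg adjusted p was under 0.05. Of the 15 member probe sets 10 were in the fit, covering 7 genes; 4 of Fn1 and that of Spp1 were not. Among these 10, 2 were called higher after induction (Lama5 and Col5a1), 0 were called lower, also at an unadjusted p under 0.05, and 8 were not called. Over all tested probe sets 4.1% were called higher, 2.97% lower and 7.06% in either direction. The median log2 difference was 0.19 over the 10, of which 4 are of Sparc, and -0.05 over all tested probe sets. The genes were chosen with this contrast known, so nothing is read from their share called or their median. The calls of Lama5 and Col5a1 were made under all 18 alternatives that counted probe sets, and Itgb1 was called as well when induced replicate 4 was left out. The alternatives refit the same arrays, so they show dependence on the processing and are no separate evidence for genes chosen on these values.

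**Figure D1:**
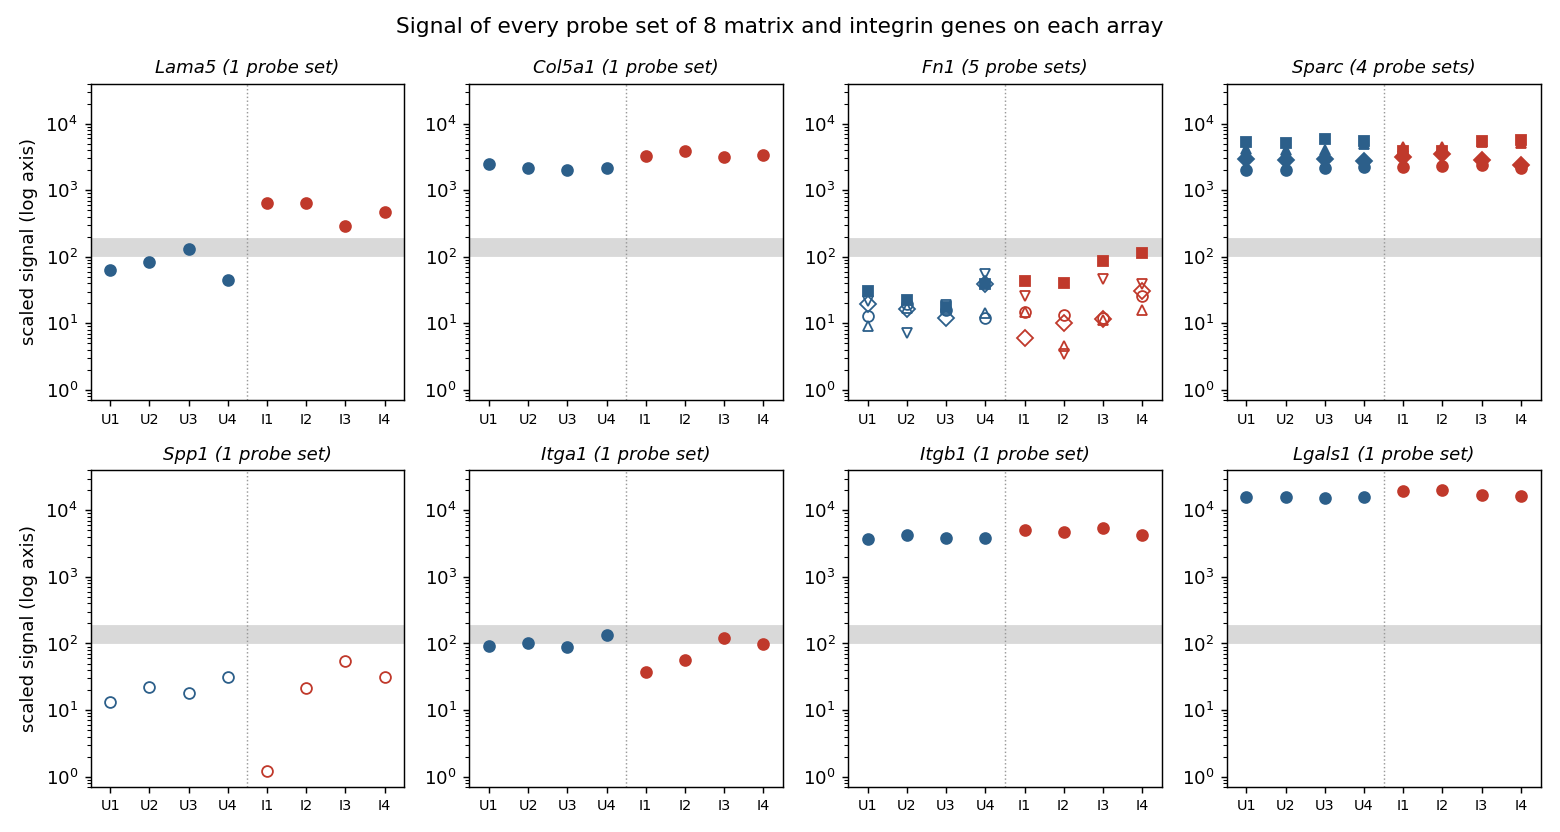
Scaled signal (log axis) of each probe set on each array for the 8 genes, with uninduced replicates U1 to U4 in blue and induced replicates I1 to I4 in red. Filled points are probe sets in the fit, open points are probe sets under the low-signal filter, marker shapes tell the probe sets of a gene apart, and the grey band is the range over arrays of the 95th percentile of the negative controls (101.6 to 183.5). Lama5 moves from within or under the band to above it, while Fn1 and Spp1 stay in or under it.

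Lama5, the alpha 5 chain of laminin found in many basement membranes, had signals of 64.0, 83.9, 128.7 and 44.5 in uninduced replicates 1 to 4 and of 636, 642.3, 291.4 and 462.8 in induced replicates 1 to 4. Every induced array was brighter than every uninduced one, and induced replicate 3 was the lowest of its group. The means were 80.28 ± 36.1 uninduced and 508.1 ± 167 induced (SD, n = 4 each), a fitted log2 difference of 2.59 ± 0.32 (SE). Because no uninduced array exceeded its negative control mark, that size depends on the background. With each uninduced value raised to the mark of its array where it was lower, Lama5 was at least 3.3-fold higher in induced samples. The genes whose arrays followed Lama5 most closely were Flnc, an actin crosslinker, and Klf6, a zinc finger transcription factor. Their root mean square differences from Lama5, on the scale of log2 signal minus the uninduced mean over the 8 arrays, were 0.422 and 0.483 among 3616 other genes. This measure takes in the difference between the groups, so it selects genes with a change of similar size.

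Col5a1 encodes the alpha 1 chain of type V collagen, a minor fibrillar collagen that helps to start and limit the growth of collagen fibres. Its signals were 2455.6, 2122.2, 2020.4 and 2158.3 in uninduced replicates 1 to 4 and 3302.6, 3921.4, 3103.4 and 3328.4 in induced replicates 1 to 4. The groups were separated by 647.8 between the lowest induced and the highest uninduced array. The means were 2189 ± 187 and 3414 ± 353 (SD, n = 4 each), 56% higher in induced cells, and the fitted log2 difference was 0.64 ± 0.10 (SE). Both group spreads were small, with coefficients of variation of 8.54% and 10.3%. By the same measure of likeness, Eno1, a glycolytic enzyme, lay nearest to Col5a1 (0.0689), and Ehd4, a protein of endosome traffic, came next (0.12).

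Itgb1 encodes the beta 1 chain shared by many of the integrins that bind laminin, collagen or fibronectin. Its signals were 3755.5, 4270.6, 3834.5 and 3879.3 in uninduced and 5065.5, 4819.8, 5527.1 and 4312.5 in induced replicates 1 to 4. The groups did not overlap, but only 41.9 separated induced replicate 4 from uninduced replicate 2. Means were 3935 ± 230 and 4931 ± 506 (SD, n = 4 each), 25.3% higher in induced cells (log2 difference 0.32 ± 0.09, SE), and the probe set was not called. Itga1, the alpha 1 chain that pairs with beta 1 to form a collagen and laminin receptor, had signals near the negative controls. They were 91.2, 102.6, 89.2 and 134.1 in uninduced and 37.5, 57.0, 121.4 and 96.7 in induced replicates 1 to 4. Induced replicates 1 and 2 were the lowest of all 8 arrays and the groups overlapped, with a log2 difference of -0.49 ± 0.35 (SE). At these signals a fall or a small change in Itga1 was not detectable, and only 1 induced and 1 uninduced array exceeded the control mark.

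Lgals1, galectin-1, had signals of 16074.3, 15679.4, 15402.4 and 15900.3 in uninduced replicates 1 to 4 and 19514.7, 20071.8, 17206 and 16591.3 in induced replicates 1 to 4. Every induced array was above every uninduced one. The means were 15760 ± 290 and 18350 ± 1710 (SD, n = 4 each), 16.4% higher in induced cells (log2 difference 0.21 ± 0.08, SE), and the probe set was not called. The spread of Lgals1 was unequal, with a coefficient of variation of 1.84% in uninduced and 9.29% in induced cells, and induced replicates 1 and 2 lay above replicates 3 and 4. In all, the groups did not overlap for 5 of the 10 member probe sets in the fit, those of Lama5, Col5a1, Itgb1, Lgals1 and 1 of Fn1, each higher in induced cells. Over all tested probe sets 6.48% had no overlap with induced higher, and 13.6% had none in either direction. That contrast was known when the genes were chosen, so nothing is read from the count.

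**Figure D2:**
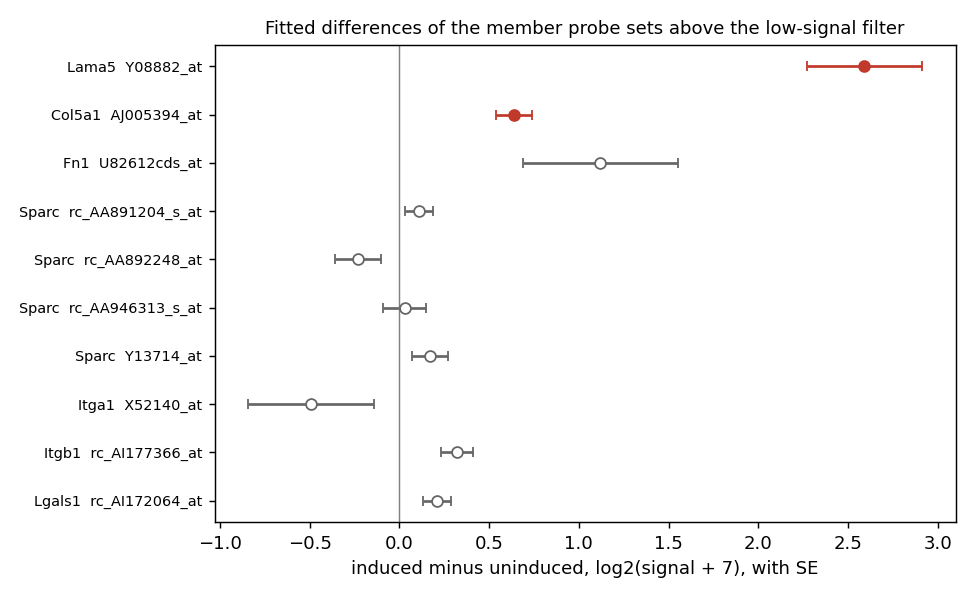
Fitted difference, induced minus uninduced, in log2(signal + 7) with its standard error for the 10 member probe sets above the low-signal filter (4 arrays per group). Filled red points passed the test over 6129 probe sets and open points did not. Lama5 (2.59) and Col5a1 (0.64) are filled, and the 4 Sparc probe sets lie between -0.23 and 0.17.

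Sparc, a secreted collagen-binding glycoprotein also called osteonectin, was read by 4 probe sets that differed in sign and none of which was called. Probe set rc_AA892248_at read 5324.1, 5143.9, 5849.9 and 5587.4 in uninduced and 3947.7, 3848.1, 5446.3 and 5749.2 in induced replicates 1 to 4 (log2 difference -0.23 ± 0.13, SE). Its induced replicates 1 and 2 lay below every uninduced array, whereas replicates 3 and 4 lay within the uninduced range. Probe set Y13714_at read 4203.3, 4065.2, 4087.3 and 4910.9 in uninduced and 4431.5, 4537.3, 5361.3 and 5146.9 in induced replicates 1 to 4 (0.17 ± 0.10). There too induced replicates 1 and 2 were lower than 3 and 4. Probe set rc_AA946313_s_at showed the opposite order, with 3158.5 and 3503.3 in induced replicates 1 and 2 and 2823.7 and 2352.7 in replicates 3 and 4, around uninduced signals of 2912.7, 2843.7, 2979.9 and 2723.3. Its difference was 0.03 ± 0.12 and turned to -0.02 with quantile normalization. Probe set rc_AA891204_s_at varied least of the 4 in induced cells, from 2171.5 to 2369, and read from 1984.2 to 2247 in uninduced cells. Its log2 difference was 0.11 ± 0.08. The mean over the 4 probe sets differed by 0.02 ± 0.07 on the log2 scale.

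For rc_AA892248_at and Y13714_at, induced replicates 1 and 2 were lower than 3 and 4, and so were the median signals of these arrays. For rc_AA946313_s_at the order was the opposite, and rc_AA891204_s_at followed neither order. Induced replicates 1 and 2 had median signals of 97.5 and 103.9, the lowest of all 8 arrays, and replicates 3 and 4 had 118.7 and 134.9. The 3′ over 5′ signal ratio of the beta-actin control (log2), a sign of RNA or labelling quality, was -0.67 on induced replicate 3 and between 0.08 and 0.57 on the other arrays. The same ratio was 0.56 for Gapdh on induced replicate 3, the highest of the 8 arrays (0.2 to 0.56), and 1.14 for hexokinase, within the range of 0.5 to 1.37. The part of these array properties in the values of Lama5, Sparc, Lgals1, Itga1 and Fn1 was not tested. Where in the transcript each Sparc probe set lies was not analysed here.

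**Figure D3:**
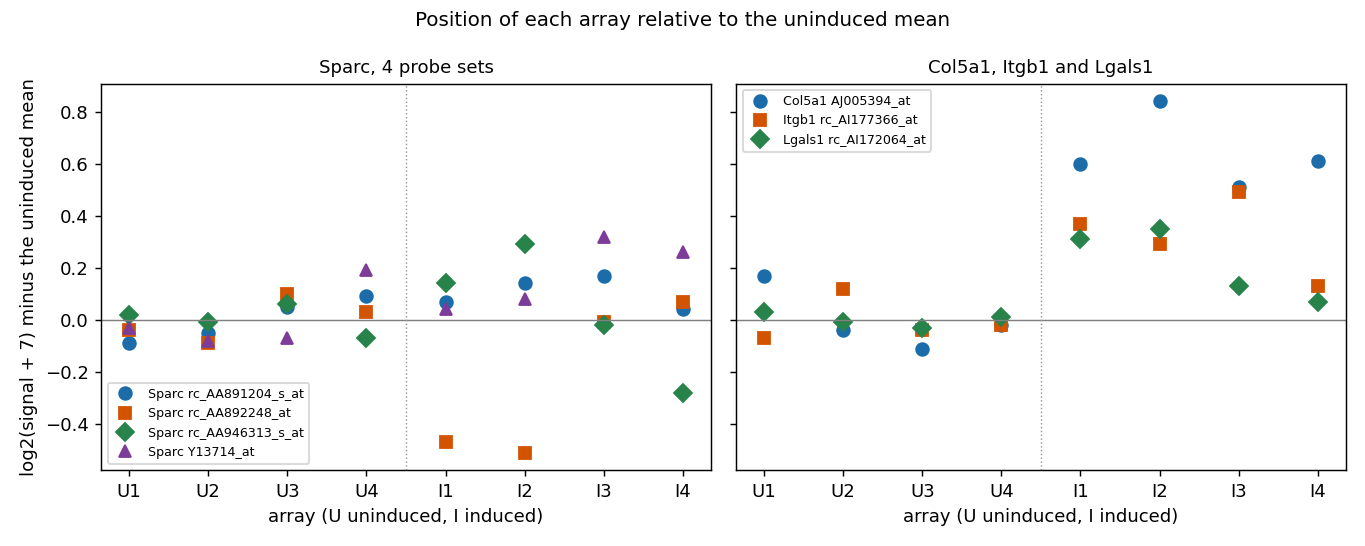
Log2(signal + 7) of each array minus the mean of the 4 uninduced arrays, for the 4 Sparc probe sets (left) and for Col5a1, Itgb1 and Lgals1 (right), with uninduced arrays U1 to U4 and induced arrays I1 to I4. For Sparc, probe set rc_AA892248_at lies at -0.47 and -0.51 on I1 and I2 and near 0 on I3 and I4, while rc_AA946313_s_at lies at 0.14 and 0.29 on I1 and I2. The genes on the right lie above the uninduced mean on all 4 induced arrays.

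Fn1 encodes fibronectin, the glycoprotein that integrins bind through its RGD sequence and that cells assemble into fibrils. Of its 5 probe sets only U82612cds_at had a mean above the filter, and it did so through the induced arrays, since its uninduced mean of 27.45 lay below the filter. It read 30.7, 22.3, 17.3 and 39.5 in uninduced and 43.8, 40.8, 86.7 and 114.9 in induced replicates 1 to 4 (log2 difference 1.12 ± 0.43, SE, not called). The groups were 1.3 apart at signals under the negative control mark of every array. Its companion probe set U82612cds_g_at averaged 21.77 ± 12.2 in uninduced and 14.45 ± 10.9 in induced cells (SD, n = 4 each), which is the opposite order. The other 3 Fn1 probe sets averaged 11.55 to 28.62 in either group. Spp1, osteopontin, a secreted phosphoprotein of bone and remodelling tissue that integrins also bind, read 13.2, 22.3, 18.0 and 31.5 in uninduced and 1.2, 21.5, 53.9 and 31.8 in induced replicates 1 to 4. The groups overlapped. The 5 probe sets under the filter read between 1.2 and 55.6. At such signals a fall or a small change in fibronectin or osteopontin transcripts was not detectable with these arrays. No probe set of either gene rose above the control mark on an induced array.

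The other genes of the matrix and its receptors were read from 10 lists with the members left out, each gene by its probe set of highest mean signal. Of 79 genes tested, 5 rose, 1 fell and 73 were not called in limma, which is 7.59% called against 7.2% of 3623 genes (4.31% higher and 2.9% lower). The median log2 difference was 0.02 over these genes and -0.05 over all genes. The lists were chosen with earlier results of these data known. Nothing is therefore read from their share called, and the adjusted p-values of their genes are descriptions of these arrays. Counts at an unadjusted p under 0.05 are given below without the share over all genes, so no rise or fall of a list is read from them. The genes that rose were the heparan sulfate proteoglycan Sdc1, the tetraspanin Cd151, the small GTPase Rhob, the urokinase receptor Plaur and the galectin Lgals3. The hyaluronan receptor Hmmr, which also acts at the mitotic spindle, fell.

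In the structural lists the probe set standing for each gene was never called. Laminins and basement membrane genes had 0 of 5 tested called and other collagens 0 of 9, in limma and at an unadjusted p under 0.05. Col1a1, a chain of type I collagen named after its values were seen, is an exception among the other probe sets: M27207mRNA_s_at rose by 1.05 (limma adjusted p = 0.03) and rc_AI231472_s_at by 0.71 (limma adjusted p = 0.0244), while the probe set standing for it differed by 0.13. The laminin gamma chain Lamc1 differed by 0.13 ± 0.12 (SE), from 848.1 to 929.3 in mean signal, and Lama1 by 0.68 ± 0.59 at signals under the control mark. Col3a1, a fibrillar collagen, differed by 0.18 ± 0.11, by -0.1 in its other probe set and by 0.04 ± 0.13 over their mean. Col4a3 differed by -0.15 ± 0.32 at signals that exceeded the control mark on 1 array. The difference was 0.83 for Col2a1 and 0.42 for Col12a1, at signals under the control mark on every array. Lama1 and Col2a1 had uninduced means of 32.12 and 32.32, below the filter, and were in the fit through their induced arrays. Collagen processing enzymes had 0 of 9 called (2 higher and 0 lower at an unadjusted p under 0.05). P4hb, protein disulfide isomerase and a subunit of prolyl hydroxylase, differed by 0.33 ± 0.10 (limma adjusted p = 0.0717), Plod3 by 0.30 and Plod2 by -0.28. Matricellular proteins and glycoproteins had 0 of 9 called (2 higher and 0 lower at an unadjusted p under 0.05). Vitronectin, Vtn, differed by 1.39 ± 0.39 (limma adjusted p = 0.0522) at signals that exceeded the control mark on 1 array, Mfge8 by 0.76 and Eln by -0.60. Mfge8 was at 0.39 without uninduced replicate 1, and Eln was at -1 without induced replicate 4 (limma adjusted p = 0.038; at most 0.667 without another array). Of these lists, 5 of 9 laminin and basement membrane genes, 7 of 11 collagens and 14 of 19 matricellular genes on the array lay at or under the control mark on every array.

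Among matrix proteoglycans 1 of 12 rose and 0 fell (also 0 lower at an unadjusted p under 0.05). Sdc1, syndecan-1, read 1780.3, 2000, 1940.1 and 1718.3 in uninduced and 3250.6, 2898.8, 2895.7 and 2537.5 in induced replicates 1 to 4. The groups did not overlap, and the log2 difference was 0.63 ± 0.10 (SE; limma adjusted p = 0.00174). Its second probe set rose by 0.74, and with median centring over all probe sets the adjusted p of the first was 0.0665. Sdc4 differed by -0.27 and Gpc1 by -0.15.

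Integrin chains other than the members were not called, with 0 of 5 alpha and 0 of 2 beta chains, also at an unadjusted p under 0.05. Itgav, the alpha chain of vitronectin receptors, differed by 0.27 ± 0.18 (SE) and Itga7, a laminin receptor chain, by 0.16 ± 0.13. Itga8 differed by 0.21 at signals under the control mark on every array. Itgb3 differed by 0.25, at signals that exceeded the mark on 3 arrays, and Itgb7 by 0.05. Of focal adhesion adaptors, tetraspanins and kinases 2 of 16 rose and 0 fell (6 higher and 0 lower at an unadjusted p under 0.05). The unadjusted count has no share over all genes beside it, and nothing is read from it. Cd151, which binds laminin-receptor integrins in the membrane, read 1596, 1773.8, 1771.1 and 2118.7 in uninduced and 3112.6, 2934, 2920.8 and 2876.2 in induced replicates 1 to 4, with no overlap (log2 difference 0.71 ± 0.10, limma adjusted p = 0.000764). Rhob rose by 0.87 ± 0.13 on the log2 scale (limma adjusted p = 0.00113), from a mean of 1302 ± 157 to 2385 ± 351 (SD, n = 4 each), and the tetraspanin Cd81 differed by 0.35 and was not called.

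Other matrix receptors had 1 of 5 higher, 1 lower and 3 not called. Plaur, which also binds vitronectin, rose (limma adjusted p = 8.99e-07), with means of 89.97 ± 32.6 uninduced and 1470 ± 125 induced (SD, n = 4 each). No uninduced array exceeded its negative control mark for Plaur, so the fitted log2 difference of 3.99 ± 0.22 (SE) depends on the background. Against the marks, computed as for Lama5, Plaur was at least 9.87-fold higher in induced samples. Hmmr averaged 762.6 ± 19.4 in uninduced and 480.8 ± 94.1 in induced cells (SD, n = 4 each). It fell by 0.68 ± 0.15 in log2 units (SE; limma adjusted p = 0.0146). That adjusted p was 0.0544 without the intensity trend, 0.145 with median centring over all probe sets and 0.0983 without replicate 2 of both groups. Rpsa, a ribosomal protein also known as a laminin-binding protein, differed by -0.20. Of galectins and galectin ligands 1 of 7 rose and 0 fell (also 0 lower at an unadjusted p under 0.05) by the probe set standing for each gene. Another probe set of Lgals3bp, AF065438_at, named after its values were seen, fell by 0.43 (limma adjusted p = 0.0277). Lgals3, galectin-3, read 4314.8, 4454, 3545.6 and 5378.9 in uninduced and 7053.4, 7328, 7933.8 and 8047.7 in induced replicates 1 to 4 (log2 difference 0.79 ± 0.12, SE, limma adjusted p = 0.00123). The groups did not overlap. Lgals9 differed by -0.87 at signals under the control mark, and Lamp1, a lysosomal glycoprotein that galectins bind, by -0.25.

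**Figure D4:**
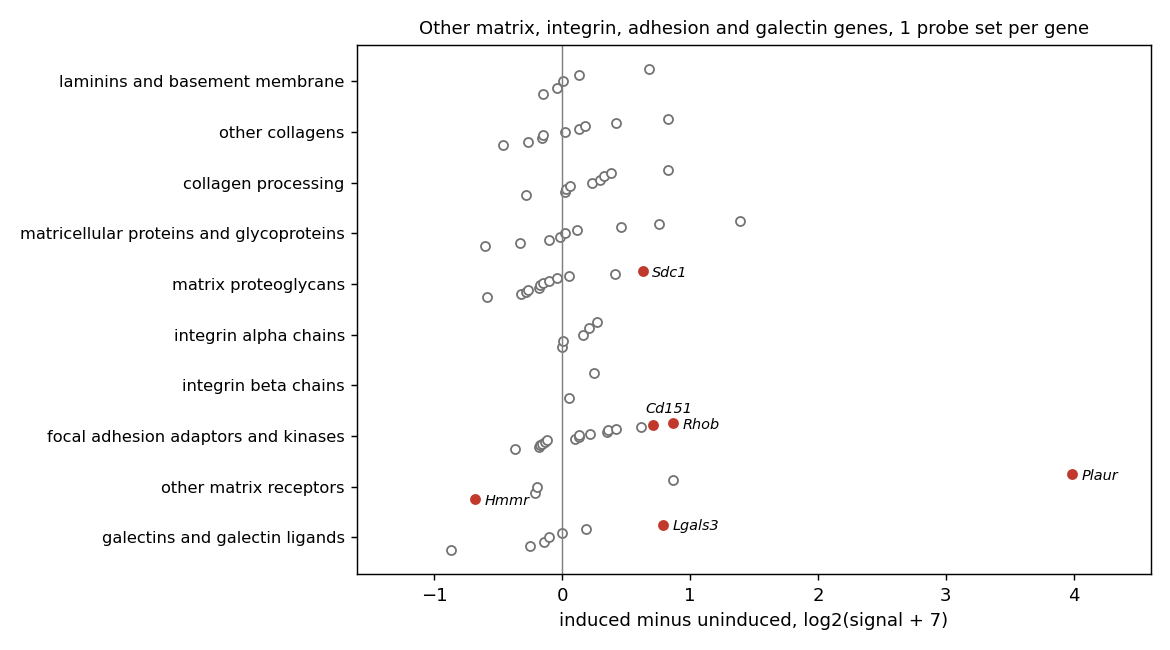
Difference, induced minus uninduced, in log2(signal + 7) for each tested gene of the 10 lists, 1 probe set per gene, with the members left out. Filled red points carry the gene name and passed the limma test over all probe sets, and open points did not. Plaur stands at 3.99, a size set by its uninduced signals under the control mark, the other 4 genes that rose lie between 0.63 and 0.87, and Hmmr lies at -0.68.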

How the data were processed

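The authors deposited 1 scaled linear signal intensity for each of 8799 probe sets on 8 arrays. From the values, the authors had brought all arrays to a common trimmed mean (499.98, with 2% trimmed from each end). The sources used here do not give the program or any step before that. Symbols came from the array annotation table: 7018 probe sets had 1 symbol, 308 several and 1473 none. Here signals were transformed to log2(signal + 7), 7 being the rounded 10th percentile. The 59 control probe sets and 2611 others with a mean under the 30th percentile were left out. Differences for the 6129 remaining came from limma 3.58.1 under R 4.3.3 (lmFit, eBayes with intensity trend; Benjamini-Hochberg adjustment over all; threshold 0.05), tested on simulated data. The number of arrays limits the precision. The members and lists were chosen with earlier results of these data known. Named list genes were every called gene and up to 3 per list with the lowest p. The 2 nearest patterns were taken for each called member. The sequence motifs were chosen after the values were seen. Alternatives changed the pseudocount (1, 50), the filter, normalization, trend, the replicate number as a block, the arrays included and the probe sets of a gene.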

Additional observations from a re-analysis of the deposited data

Results flagged for a closer look

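None of the 30 groups of 4 arrays of the member probe sets held an array that stood apart by Dixon's criterion. Among the 58 groups of the named list genes 6 did, where chance flags about 1 in 20 groups. In uninduced replicate 1, Col2a1 read 69.6 (next array 20.5), Mfge8 127.7 (next 328.7) and Plod2 383.5 (next 443.7). In uninduced replicate 4, Eln read 114.3 (next 174.2) and Lamp1 5281 (next 6754.6). In induced replicate 1, Gpc1 read 1443.3 (next 1730.1). None of these genes was called.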

How the results depend on the processing

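Lama5 and Col5a1 were called and higher in induced cells under all 18 alternatives that counted probe sets. As these refits use the arrays on which the members were chosen, they add no separate evidence. Lama5 ranged from 2.08 to 2.83 and Col5a1 from 0.56 to 0.69 on the log2 scale. Itgb1 ranged from 0.26 to 0.38, Lgals1 from 0.14 to 0.26, Fn1 from 0.61 to 1.32 and Itga1 from -0.72 to -0.21. Over the array, 251 probe sets were called higher and 182 lower (58% higher). Median centring over all probe sets, chosen after seeing the data, called 166 and 63 (72.5% higher), and leaving out replicate 2 of both groups called 141 and 80. Without the intensity trend 101 were lower, and without 1 array between 112 (without uninduced replicate 3; 119 without uninduced replicate 2) and 164. Of the list genes, 1 was called lower; 0 were called lower with that centring, without the trend or without replicate 2 of both groups, and 1 to 2 without 1 array (2 without induced replicate 4). The causes were not tested. Without 1 array, Col4a3 lay between -0.38 and 0.01 and Itgb7 between -0.08 and 0.23, neither called. Vtn, not called in the report's fit, passed in 6 alternatives, and Cd81, Eln, P4hb and Plod3 in 1 each. As Vtn was in the fit through its induced arrays, nothing is read from those 6. No pairing of arrays by replicate number was seen: deviations of same-numbered arrays correlated at -0.144, 0.0584, -0.0853 and 0.191. The deviations were taken from means of only 4 arrays per group, so this check is weak and cannot exclude pairing. A fit with a replicate block called 218 probe sets higher and 149 lower, and the same 2 members. Low signal limits Fn1, Spp1, Itga1 and the uninduced values of Lama5 and Plaur.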

Other observations

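Col1a1 and Lgals3bp, chosen after their values were seen, had probe sets that differed in call. For Col1a1 the probe set of highest signal differed by 0.13 (limma adjusted p = 0.838). Of its other 3 probe sets, M27207mRNA_s_at rose by 1.05 ± 0.26 (SE; limma adjusted p = 0.03) and rc_AI231472_s_at by 0.71 ± 0.17 (limma adjusted p = 0.0244), while Z78279_g_at at 0.70 was not called (limma adjusted p = 0.0711). Probe set M27207mRNA_s_at read 135.5, 76.6, 83.4 and 158 in uninduced and 212.4, 212, 206.7 and 309 in induced replicates 1 to 4, without overlap. For Lgals3bp, a secreted glycoprotein that binds galectins and matrix proteins, AF065438_at fell by 0.43 ± 0.10 (SE; limma adjusted p = 0.0277), and C07012_f_at differed by -0.14 (limma adjusted p = 0.774).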
